A study of Homo sapiens with 8 samples.

Results

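WNT ligands, their Frizzled receptors and the SFRP and DKK antagonists were examined for binding of the transcriptional co-activator TAZ. Members were the GENCODE version 44 protein-coding genes named WNT, FZD, SFRP or DKK followed by their family number, 37 genes of 20033. They comprised 19 WNT ligands, 10 Frizzleds, 4 SFRPs (SFRP1, SFRP2, SFRP4 and SFRP5) and 4 DKKs. TAZ had been mapped by ChIP-seq (sequencing of DNA recovered with an antibody) in MCF10A, a mammary epithelial cell line of human origin that is not transformed. In all conditions the cells were transduced with the activated variant TAZ-4SA under doxycycline (Dox) control. Cells were left without Dox or received it at 0.05 µg/ml for 24, 48 or 72 h. For each of these 4 conditions 1 TAZ library and 1 IgG library had been sequenced, which makes 8 libraries. The processed data were 4 peak lists, 1 per condition. The sources used here do not say whether the transduced cells were a clone or a pool.

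WNT ligands are lipid-modified secreted proteins that bind Frizzled receptors on the cell surface together with LRP5 or LRP6. In the canonical branch this stabilises beta-catenin, which then acts with TCF/LEF factors, while other branches signal through the same Frizzleds without beta-catenin. SFRPs capture WNTs outside the cell, and DKK1 and DKK2 block LRP5 and LRP6. TAZ does not bind DNA itself and is brought to it mainly by TEAD factors, often beside AP-1. Peaks show where TAZ was bound, not whether the nearby gene was transcribed, and a higher signal from more cells with a bound site cannot be told apart from more TAZ per cell. Whether the antibody sees the endogenous and the induced protein alike is not given in the sources used here.

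A peak was counted for a member in 2 ways. Its promoter peaks were those with a summit no more than 3 kb from a transcription start site (TSS) of any of its annotated transcripts. An assigned peak had its summit within 100 kb of a TSS with the member as the nearest protein-coding gene. Fold enrichment is the ratio of fragments over the summit to the local background, as deposited. The interval in brackets after a fold enrichment is an exact 95% Poisson interval of the summit fragments, and it covers counting error only, since PCR copies are not independent molecules. With 1 TAZ library per condition there was no replicate check and no test, so that values are compared as descriptions of these libraries. Sites are numbered along the chromosome within each gene, and distances are given from the nearest TSS, upstream or downstream in the direction of transcription.

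The background coverage of a list was taken as the lowest local background of any of its peaks, and is not a measured sequencing depth. It lay between 1.42 and 2.84 fragments, and the median summit held 20 to 36 fragments. CCN2 and CCN1, widely used YAP/TAZ targets, served as control loci. CCN2 had no assigned peak without Dox, and its highest fold enrichment at 24, 48 and 72 h was 16.8, 19.9 and 37.9. CCN1 had 2 assigned peaks without Dox, and its highest fold enrichment was 5.71 there and 9.09, 21.1 and 47.1 at the later times. At 72 h, 7 of 8 basal, 5 of 8 luminal, 3 of 7 fibroblast and 1 of 6 blood marker genes had a promoter peak, beside 58.4% of all protein-coding genes. Peaks do not measure expression, and these counts do not settle the labelled cell type.

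Sequences at 6 of the member sites that the results turn on are printed first. They are windows of a summit with 100 bp on each side, read from the plus strand of hg38. Capitals mark TEAD consensus letters (ACATTCC or GCATTCC on either strand, or the core CATTCC where it stands without them) and AP-1 letters (TGAGTCA or TGACTCA). FZD2 site 1 and FZD2 site 2 were the only member sites called in all 4 lists, and FZD10 site 2 was called from 24 h on. WNT7A site 2 had the highest fold enrichment of the ligand genes and DKK3 site 4 the highest of the SFRP and DKK genes. DKK1 site 4 was weaker at 72 h than at 48 h.
FZD2 site 1, 72 h summit, chr17:44543215-44543415: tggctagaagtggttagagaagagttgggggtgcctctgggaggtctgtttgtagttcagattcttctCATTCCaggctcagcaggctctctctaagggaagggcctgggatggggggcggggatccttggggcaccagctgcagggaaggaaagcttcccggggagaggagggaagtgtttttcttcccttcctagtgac
FZD2 site 2, 72 h summit, chr17:44552442-44552642: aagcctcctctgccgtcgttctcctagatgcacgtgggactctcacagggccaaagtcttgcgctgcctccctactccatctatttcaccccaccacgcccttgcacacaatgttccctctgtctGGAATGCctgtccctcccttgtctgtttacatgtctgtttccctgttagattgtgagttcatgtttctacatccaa
FZD10 site 2, 24 h summit, chr12:130097797-130097997: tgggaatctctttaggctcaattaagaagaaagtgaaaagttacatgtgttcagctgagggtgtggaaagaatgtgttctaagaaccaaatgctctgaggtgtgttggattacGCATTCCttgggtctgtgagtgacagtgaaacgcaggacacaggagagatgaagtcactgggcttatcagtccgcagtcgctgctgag
WNT7A site 2, 72 h summit, chr3:13850469-13850669: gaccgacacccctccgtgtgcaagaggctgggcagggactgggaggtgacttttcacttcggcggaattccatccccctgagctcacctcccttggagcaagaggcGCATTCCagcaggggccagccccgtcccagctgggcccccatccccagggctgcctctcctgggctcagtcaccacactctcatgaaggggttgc
DKK3 site 4, 72 h summit, chr11:11992474-11992674: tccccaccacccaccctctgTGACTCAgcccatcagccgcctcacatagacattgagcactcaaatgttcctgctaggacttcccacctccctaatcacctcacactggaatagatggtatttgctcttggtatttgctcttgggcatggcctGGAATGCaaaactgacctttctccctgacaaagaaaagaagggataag
DKK1 site 4, 48 h summit, chr10:52319223-52319423: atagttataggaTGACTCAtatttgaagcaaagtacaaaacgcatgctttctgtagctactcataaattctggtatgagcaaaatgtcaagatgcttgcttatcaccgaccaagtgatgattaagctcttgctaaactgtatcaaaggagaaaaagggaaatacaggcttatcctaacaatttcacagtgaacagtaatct

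TAZ peaks were listed at the promoters of these genes almost only at 72 h. From no Dox to 72 h, the lists held 2431, 2469, 11767 and 38667 peaks. Their lowest deposited −log10 p-values were 5.16, 5.27, 4.52 and 3.94, so the 72 h list was the longest and reached the weakest p-values. Scaled to the lowest coverage with a common threshold, the lists held 2392, 2468, 10492 and 36229 peaks. In these, 0, 0, 1 and 16 members had a promoter peak. No member had a promoter peak without Dox or at 24 h, when 9.4% and 2.55% of all protein-coding genes had one. At 48 h, 2 of 37 members (5.41%, exact binomial interval 0.662 to 18.2%) had one, beside 9.09% of all genes. At 72 h, 18 members did (48.6%, 31.9 to 65.6%), beside 58.4% of all genes. The share of members with a promoter peak was thus below that of all genes in each list, with intervals that included the share of all genes at 24, 48 and 72 h and, at an upper bound of 9.49%, without Dox.

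**Figure D1:**
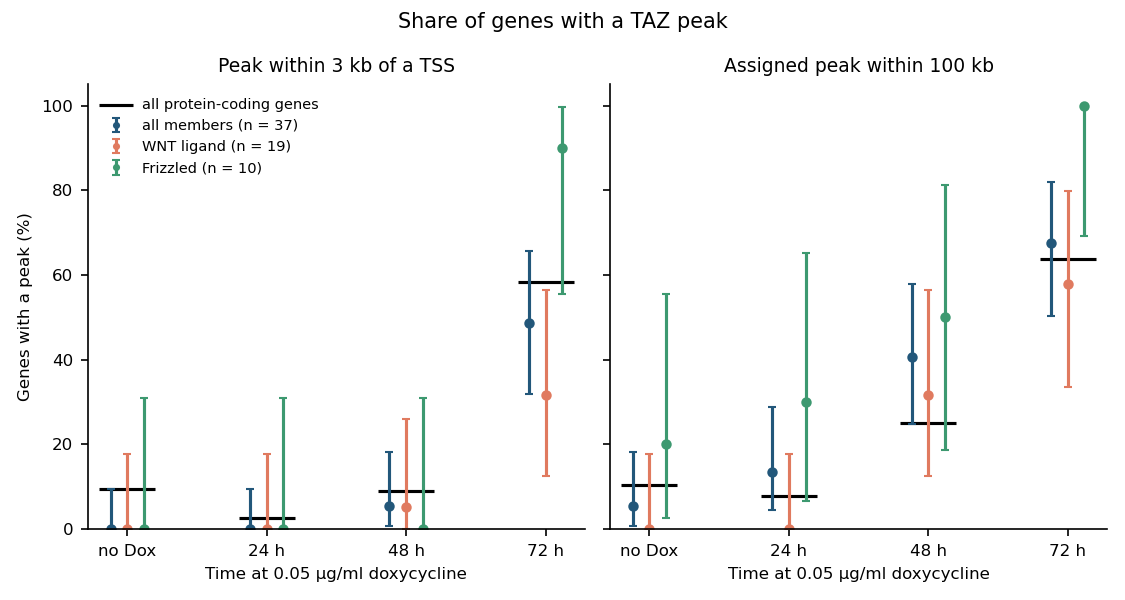
Share of genes with a TAZ peak in the lists without Dox and at 24, 48 and 72 h, within 3 kb of a TSS (left) and as assigned peak within 100 kb (right). Points are shares in percent with exact 95% binomial intervals for all 37 members, the 19 WNT ligands and the 10 Frizzleds, and black lines are all protein-coding genes. At 72 h, 90.0% of Frizzleds and 31.6% of WNT ligands had a promoter peak beside 58.4% of all genes.

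The 3 promoter peaks at 48 h, 1 at WNT5A and 2 at DKK3, lay away from the main start of their gene. In WNT5A, which encodes a ligand mostly known for beta-catenin-independent signalling, the 48 h peak (4.42 fold) lay in the 3′ part of the gene, in an exon and untranslated region 2796 bp from an internal TSS. In DKK3 they lay in introns, 2121 and 2460 bp from internal TSSs, at 10.0 and 7.23 fold. With TSSs of protein-coding transcripts only, or with the 5′ end of the gene only, no member had a promoter peak at 48 h, while 17 and 16 had one at 72 h.

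Assigned peaks appeared earlier and at more members. Without Dox 2 members had an assigned peak (10.3% of all genes had one), at 24 h 5 (7.78% of all genes), at 48 h 15 (25.0%) and at 72 h 25 (63.8%). As shares of the 37 members these were 5.41%, 13.5%, 40.5% and 67.6%. The 48 h share had an interval of 24.8 to 57.9%, whose lower bound lay just under the share of all genes. The assigned peaks numbered 3, 7, 36 and 82 in the order of the times. Since intergenic distances differ, these were also read per megabase of the territory nearest to the members (3.92 Mb), which gave 0.764, 1.78, 9.17 and 20.9 peaks per Mb beside 1.20, 1.01, 4.94 and 17.4 per Mb around all genes. The densities around members were above those around all genes in the 3 lists with Dox. No interval was computed for them, the 24 h density rests on 7 peaks, and 11 of the 82 peaks at 72 h were those of WNT7B. Whether the densities differ beyond counting error was not tested.

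Assignment to the nearest gene was the choice that moved these counts most. When genes of any type, including non-coding RNAs and pseudogenes, competed for a peak, 4 of 7 peaks at 24 h, 19 of 36 at 48 h and 43 of 82 at 72 h stayed with a member, and the members with an assigned peak numbered 3, 10 and 18. A peak nearest to a member was not shown to act on it.

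Most member peaks lay outside the gene they were assigned to. At 72 h, 27 of 82 lay inside the member itself and 55 outside it, 16 of these within another gene. By location, 39 peaks at 72 h were intergenic, 34 intronic and 9 in exons, and 47 lay upstream and 35 downstream of the nearest TSS. Of the member peaks, 100% without Dox and at 24 h, 91.7% at 48 h and 73.2% at 72 h were more than 3 kb from a TSS, beside 31.6%, 75.7%, 78.9% and 58.6% of all assigned peaks. The distal share of member peaks was thus the larger one in each list. No interval was computed for it, and the first 3 lists held only 3, 7 and 36 member peaks. The median fold enrichment of member peaks was 6.27, 6.69, 6.41 and 6.79, beside 5.62, 7.57, 6.52 and 7.10 for all assigned peaks, so that member peaks as a group were of ordinary height.

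**Figure D2:**
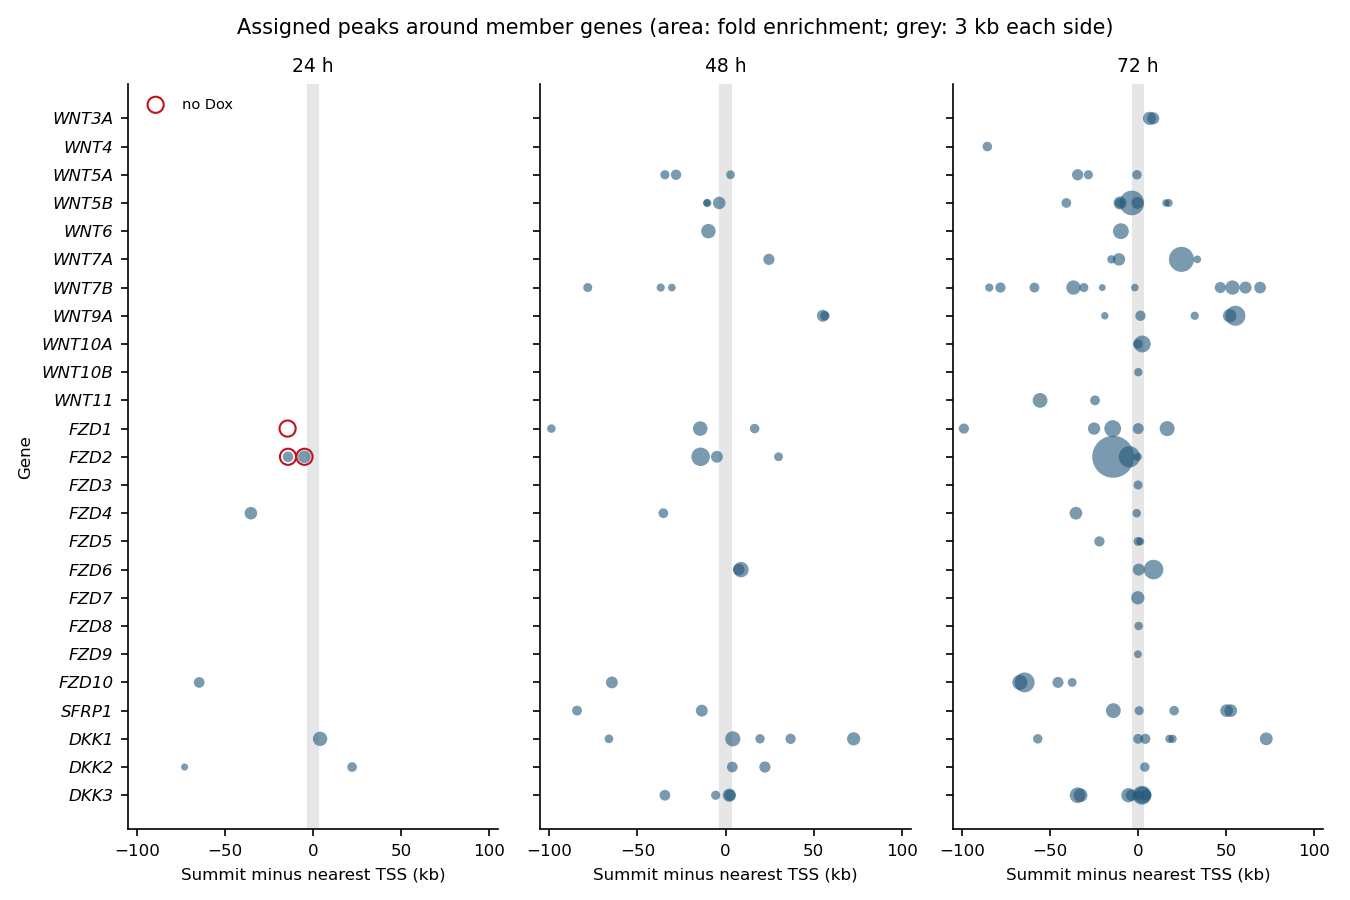
Assigned peaks of the 25 members with a peak at 72 h, placed by the distance in kb between summit and nearest TSS (negative is upstream), in the 24, 48 and 72 h lists. The area of a point is proportional to fold enrichment, open circles of fixed size are the 3 peaks without Dox, and the grey band is 3 kb on each side of the TSS. The points at 24 h lie outside the band, and 22 of the 82 points at 72 h lie in it.

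Merged across lists by an overlap of at least 1 bp, the member peaks formed 89 regions. Of these, 54 (60.7%) were called at 72 h alone and 22 (24.7%) at 48 and 72 h, beside 66.5% and 21.2% of all 39503 regions. Another 5 member regions (5.62%) were called at 48 h alone, beside 1.29% of all regions. Regions called at both 48 and 72 h had a median 72 h fold enrichment of 11.8, and those called at 72 h alone one of 5.52. The same order held over all regions, at 11.6 and 6.03. The 2 regions of FZD2 called in all lists stood at 101.2 and 26.1 fold at 72 h.

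At the 28 member regions called at both 48 and 72 h, fold enrichment was higher at 72 h in 23 and lower in 5. The counting intervals did not overlap in 14 of the 23 (50% of 28, beside 54.3% of 10978 such regions over the genome) and in 1 of the 5 (3.57%, beside 0.401%). The median ratio of 72 h to 48 h was 1.65, with a range of 0.450 to 5.12, beside a median of 1.88 over all such regions. Relative to the background coverage of each list, the summit fragments had a median ratio of 2.33, beside 2.24.

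The Frizzled genes, which encode the seven-pass receptors for WNTs, had the highest share of genes with a peak of the 4 families at 72 h. In that list all 10 had an assigned peak (interval from 69.15%), beside 63.8% of all genes. With genes of any type as candidates, FZD4, FZD7 and FZD10 kept none of their peaks, and the share of all genes under that rule is not given here. The highest assigned peaks of FZD3, FZD8 and FZD9 stood at only 4.72, 4.19 and 3.50 fold. A promoter peak was found at 9 of 10 (90.0%, interval 55.5 to 99.8%), beside 58.4% of all genes. All but FZD10 had a promoter peak, whereas without Dox and at 24 and 48 h no Frizzled had one (9.4%, 2.55% and 9.09% of all genes did). At 24 and 48 h, 3 and 5 of 10 Frizzleds had an assigned peak, beside 7.78% and 25.0% of all genes. The Frizzled intervals, 6.67 to 65.25% and 18.7 to 81.3%, included these shares. Of the 4 DKK genes, 2 and 3 had an assigned peak at these times. The promoter peaks were of low to moderate height. FZD7 stood highest at 10.3 fold (8.03 to 12.9), with the summit 208 bp upstream of its TSS. FZD6 followed with 8.29 and FZD1 with 6.98, and the other 6 (FZD2, FZD3, FZD4, FZD5, FZD8 and FZD9) lay between 3.50 and 4.72. A gene that is not protein-coding had a TSS nearer to the FZD7 summit, at 110 bp. The FZD4 summit, 838 bp from the FZD4 TSS, lay 152 bp from that of the divergent transcript FZD4-DT. At a fold enrichment of at least 5, the members with a promoter peak at 72 h fell to 9 of 37 in all. The share of all genes at that threshold is not given here.

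The strongest member site at 72 h lay 14169 bp upstream of FZD2 (ENSG00000180340.7, chr17:44557484-44561262, plus strand). This site, FZD2 site 1 (chr17:44542018-44545565, intergenic), had a fold enrichment of 6.38 (3.97 to 9.79) without Dox. With Dox it was 6.46 (4.66 to 8.73), 19.8 (16.7 to 23.2) and 101.2 (90.7 to 113) at 24, 48 and 72 h. The 48 and 72 h intervals overlapped neither each other nor those of the earlier lists, and those of the first 2 lists overlapped. These intervals take the local background as fixed, and it was 6.435 fragments at 48 h and 2.331 at 72 h. From 48 to 72 h the ratio was 5.12 by fold enrichment and 3.26 by summit fragments relative to background coverage. The summit held 19, 40, 146 and 336 fragments in the same order and moved by at most 18 bp among the lists. Relative to background coverage, the fragments were already more numerous at 24 h than without Dox (28.2 against 12.7), whereas the fold enrichment, which is taken over the local background, did not differ beyond counting error. By its highest assigned peak at 72 h, FZD2 lay above 99.9% of protein-coding genes.

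No full TEAD consensus lay within 100 bp of the 72 h summit of FZD2 site 1, as the printed sequence shows. The core CATTCC, preceded there by a T, lay 29 bp from that summit and was the core nearest to the summit in all 4 lists. The nearest full consensus was 756 bp away within the 3548 bp interval. At FZD2 site 2 (chr17:44552059-44553009), 4942 bp upstream of the TSS, a full consensus lay 28 bp from the summit. Its fold enrichment was 6.27 (3.90 to 9.61), 9.12 (6.21 to 13.0), 8.09 (6.33 to 10.2) and 26.1 (22.0 to 30.8) in the order of the times. The first 3 lists had overlapping intervals and the 72 h value stood apart. The FZD2 promoter, in contrast, had a peak at 72 h alone, of 3.85 fold (2.74 to 5.27).

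FZD1 was the other member with a peak without Dox. FZD1 site 3, 14454 bp upstream of the TSS in intergenic sequence, had a fold enrichment of 5.46 (3.44 to 8.30) without Dox, no listed peak at 24 h, and 12.2 (9.02 to 16.2) and 16.3 (12.8 to 20.4) in the 48 and 72 h lists. The values at 48 and 72 h lay above the one without Dox with intervals apart, and they overlapped each other. Absence from the 24 h list is a statement about the threshold of that list, not about a lack of signal.

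FZD10, FZD6 and FZD4 had distal or intronic peaks before 72 h. FZD10 site 2, 64396 bp upstream, stood at 6.69 (4.26 to 10.1), 8.13 (6.26 to 10.4) and 22.8 (18.7 to 27.6) at 24, 48 and 72 h, with the 72 h interval apart from both others. A non-coding gene was nearer to this site than FZD10. The TEAD consensus in its printed window lay 16 bp from the 24 h summit. At 72 h the nearest consensus lay 150 bp from the summit, outside a window of that width. FZD6 site 2, in an intron of FZD6 on chromosome 8, stood at 13.7 (11.3 to 16.5) and 22.1 (18.6 to 25.9) at 48 and 72 h. FZD4 site 2, in an intron of the divergent transcript FZD4-DT 35313 bp upstream, stood at 9.10, 5.49 and 9.27 at 24, 48 and 72 h. The FZD4 intervals overlapped throughout, from 3.79 at the lowest to 13.7 at the highest bound.

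**Figure D3:**
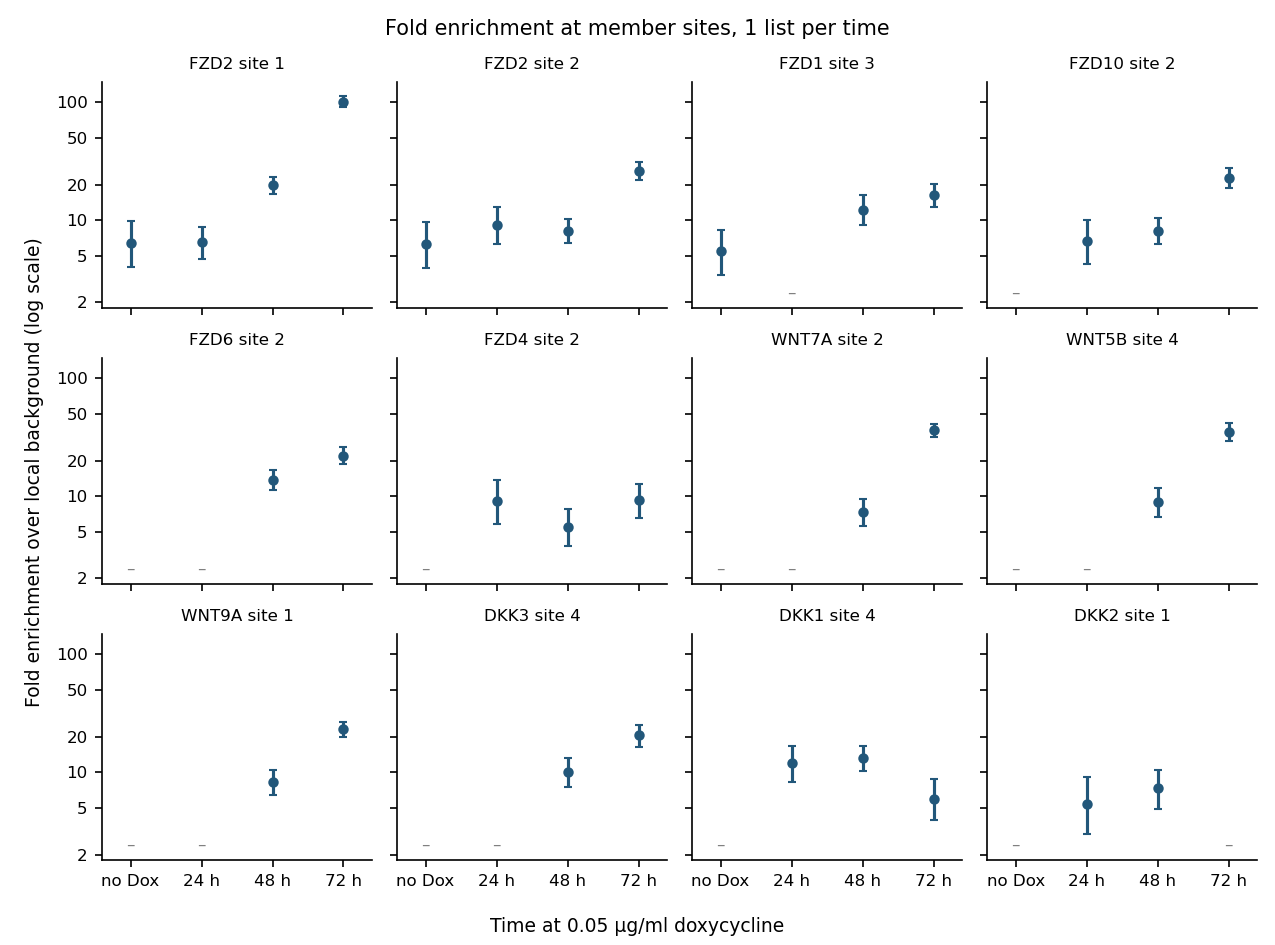
Fold enrichment over local background (log axis) of 12 member sites without Dox and at 24, 48 and 72 h, with exact 95% Poisson intervals of the summit fragments as bars. A dash marks a list with no peak at the site. FZD2 site 1 stands at 101.2 fold at 72 h, 10 of the 12 sites have their highest value at 72 h, and DKK1 site 4 and DKK2 site 1 have it at 48 h.

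WNT ligand genes had no peak without Dox or at 24 h, when 10.3% and 7.78% of all genes had an assigned one. The exact interval for the 19 genes reached 17.65% in both lists and so included these shares. At 48 h 6 of 19 had an assigned peak (WNT5A, WNT5B, WNT6, WNT7A, WNT7B and WNT9A) and at 72 h 11, with WNT3A, WNT4, WNT10A, WNT10B and WNT11 added. These were 31.6% and 57.9% of the ligand genes, beside 25.0% and 63.8% of all genes, with intervals that included those shares. Promoter peaks at 72 h were found at 6 of 19 ligand genes (31.6%, interval 12.6 to 56.6%), namely WNT5A, WNT5B, WNT7B, WNT9A, WNT10A and WNT10B. The upper bound of that interval lay below the 58.4% of all genes, and the lower bound of the Frizzled interval, 55.5%, lay below it too. The binomial intervals treat genes as independent, whereas the 5′ ends of WNT3 and WNT9B lie 47 bp apart. The 19 ligand genes include WNT3 and WNT9B, at which no absence of binding is read, as set out below. The ligand share is therefore not read as apart from that of all genes. The difference between the families was not tested. The other 8 ligand genes, WNT1, WNT2, WNT2B, WNT3, WNT8A, WNT8B, WNT9B and WNT16, had no peak by either count in any list.

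**Figure D4:**
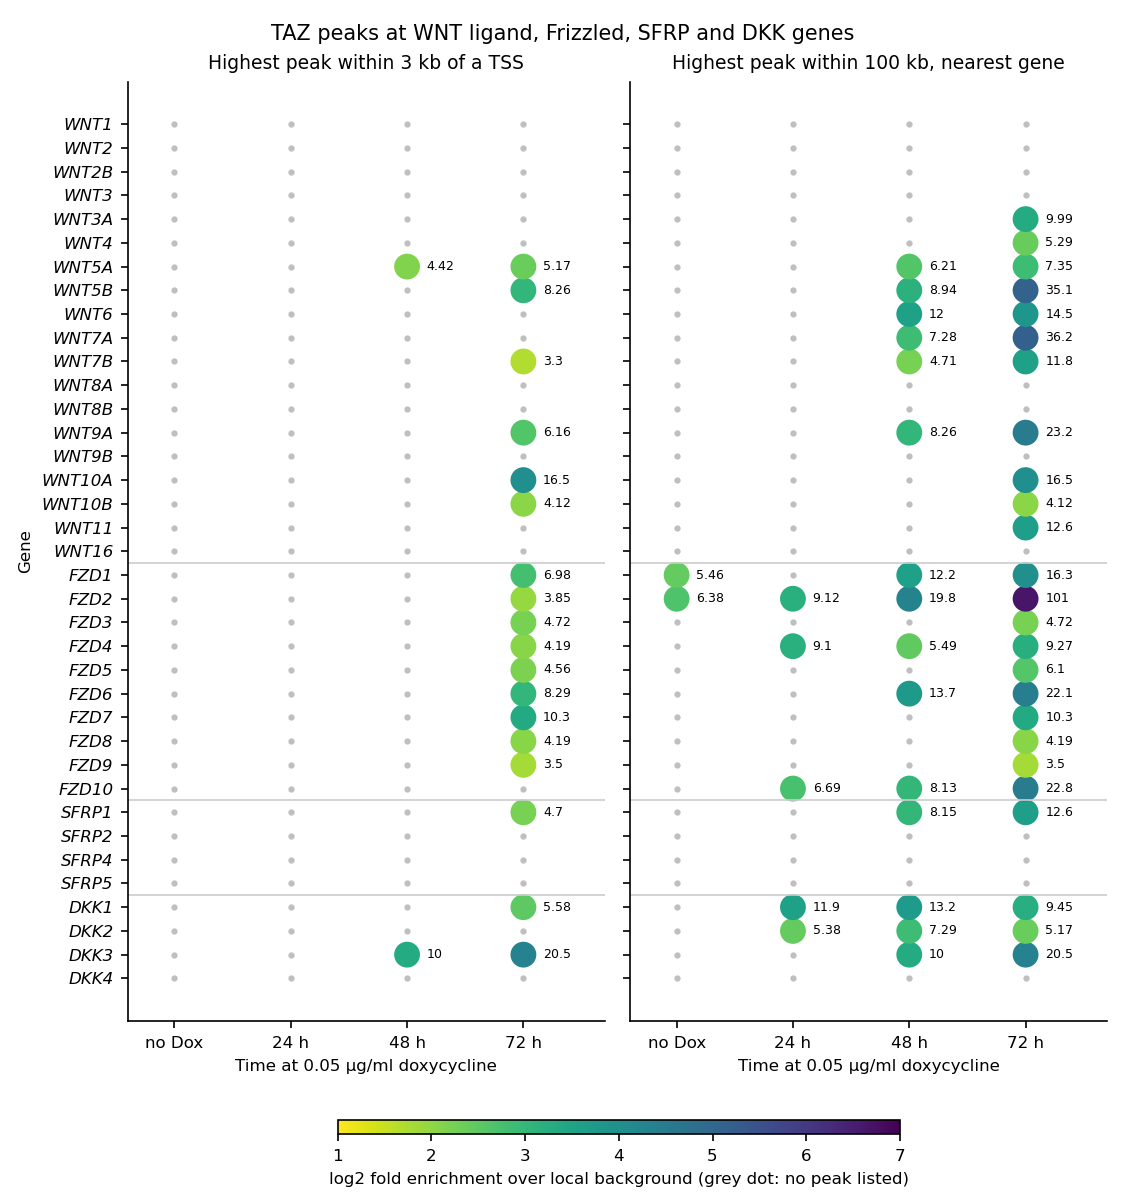
Highest fold enrichment at each of the 37 members in the 4 lists, as promoter peak within 3 kb (left) and as assigned peak within 100 kb (right). Colour is log2 fold enrichment, printed beside each point as fold enrichment, small grey dots mark no listed peak, and grey lines divide WNT, FZD, SFRP and DKK genes. The left panel is empty without Dox and at 24 h, and 9 of 10 Frizzleds fill it at 72 h.

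WNT7A and WNT5B had the strongest ligand sites, both in introns of their own gene and both absent from the first 2 lists. WNT7A site 2 (chr3:13849985-13851119), 24544 bp downstream of the TSS, stood at 7.28 (5.54 to 9.39) and 36.2 (31.6 to 41.2) at 48 and 72 h. WNT5B site 4 stood at 8.94 (6.68 to 11.7) and 35.1 (29.4 to 41.6). Both differences were larger than counting error. The WNT7A window holds a TEAD consensus 9 bp from the 72 h summit. By highest assigned fold enrichment at 72 h, WNT7A lay above 97.9% and WNT5B above 97.7% of genes. WNT7A, a ligand with roles in epithelial and limb patterning, had no promoter peak, while WNT5B had one of 8.26 fold at 72 h.

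WNT9A, WNT10A and WNT6 followed by height. WNT9A site 1, 55156 bp downstream of the TSS in intergenic sequence, stood at 8.26 (6.37 to 10.5) and 23.2 (19.9 to 26.9) at 48 and 72 h, and a microRNA gene was nearer to it than WNT9A. WNT10A site 2, in an intron, was called at 72 h alone, at 16.5 (13.0 to 20.7), with a width of 5357 bp. WNT6 site 1, 9803 bp upstream, stood at 12.0 (8.88 to 16.0) and 14.5 (11.6 to 17.9) at 48 and 72 h, with overlapping intervals. WNT6 and WNT10A lie 21047 bp apart between their 5′ ends, and the site upstream of WNT6 appeared one list earlier than those in WNT10A.

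WNT7B had 11 assigned peaks at 72 h, more than 98.7% of protein-coding genes, with protein-coding genes alone as candidates. When genes of any type competed, 1 of the 11 stayed with WNT7B, whereas 6 of 8 stayed with DKK3. The highest of the 11, WNT7B site 8, stood at 11.8 (8.98 to 15.4) after 3.83 (2.51 to 5.63) at 48 h. Its promoter peak was 3.30 fold. Of these 11 regions only WNT7B site 4 lay inside the gene, and the others were intergenic or in other genes. WNT5B had 7 peaks at 72 h and WNT9A 5. WNT3A, a canonical ligand, had peaks at 72 h alone, in its own introns, up to 9.99 fold (7.91 to 12.5), and WNT11 had one of 12.6 (9.37 to 16.6) 55644 bp upstream, with a long non-coding RNA gene nearer to it.

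The SFRP and DKK genes differed in their timing. DKK1, the secreted LRP5/6 blocker, had its strongest peak at 48 h and not at 72 h. DKK1 site 4, 4071 bp downstream of the TSS and beyond the 3′ end of the gene, stood at 11.9 (8.19 to 16.7), 13.2 (10.3 to 16.8) and 5.96 (3.94 to 8.69) at 24, 48 and 72 h. The 72 h interval lay below that of 48 h and overlapped that of 24 h. The summits held 31, 67 and 25 fragments, and 21.9, 23.6 and 12.5 times the background coverage of their lists. This site was the 1 member region of 28 with a lower value at 72 h beyond counting error. It was singled out after its values were seen, as was DKK2 below. The window at the 48 h summit holds an AP-1 and no TEAD consensus. The DKK1 promoter had a peak at 72 h alone, of 5.58 fold, which is the list with the lowest of the 3 values at the downstream site.

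DKK2, a relative of DKK1 that also binds LRP5/6, had its highest values at 48 h too. DKK2 site 1, in an intron, stood at 5.38 (2.98 to 9.08) and 7.29 (4.89 to 10.5) in the 24 and 48 h lists, and was not listed at 72 h. DKK2 site 2 stood at 6.60 at 48 h and 5.17 at 72 h, with overlapping intervals. The third DKK2 peak, of 2.87 fold, was listed at 24 h alone. Of the 100 bp words in the DKK2 peaks, 18.6% also occurred elsewhere in the reference. DKK2 had no promoter peak in any list.

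DKK3, a divergent family member that does not act as a WNT antagonist like DKK1, followed the main pattern. It had 8 assigned peaks at 72 h, more than 96.7% of genes. DKK3 site 4, in an intron of DKK3, stood at 10.0 (7.53 to 13.1) and 20.5 (16.4 to 25.3) at 48 and 72 h, with both a TEAD and an AP-1 consensus in the printed window, 56 and 77 bp from the 72 h summit. All 4 DKK3 regions called at 48 and 72 h were higher at 72 h with intervals apart, at ratios of 2.05 to 2.42. DKK4 had no peak in any list.

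Among the SFRP genes, only SFRP1 had a peak by either count. SFRP1 site 5, 14074 bp upstream, stood at 8.15 (5.90 to 11.0) and 12.6 (10.1 to 15.6) at 48 and 72 h, with overlapping intervals. Its promoter had a peak at 72 h alone, of 4.70 fold (2.92 to 7.21). SFRP2, SFRP4 and SFRP5 had none in the 4 lists.

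Promoter base composition was given beside these calls. The GC content of the 500 bp on each side of the main TSS had a median of 69.4% at the 18 members with a promoter peak at 72 h and 68.3% at the 19 without, where over all genes it was 63.5% and 56.3%. Members without a promoter peak were thus nearly as GC-rich as those with one. Mapping differed for 1 pair of genes. At WNT3 and WNT9B, whose 5′ ends lie 47 bp apart, 98.6% and 99.5% of the 100 bp words around the TSSs also occurred in an alternate sequence of the reference, whereas at no other member did over 0.779% of these words occur elsewhere. The lists hold peaks on other alternate sequences of chromosome 17, and none (0 in each list) on the 2 alternate sequences that carry these words. How reads matching both copies were treated is not given in the sources used here, so no absence of binding is read from the lists at WNT3 and WNT9B.

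TEAD consensus letters were common at member peaks beyond the promoters. In windows of 100 bp on each side of the summit, they were found at 2 of 3 member peaks without Dox, 2 of 7 at 24 h, 16 of 36 at 48 h (44.4%, exact binomial interval 27.9 to 61.9%) and 20 of 82 at 72 h (24.4%, 15.6 to 35.1%). Over all peaks the shares were 16.4%, 52.1%, 41.9% and 27.7%. Equally wide windows centred 1000 bp away from the summit held it at 3.66% for members and 5.10% for all peaks at 72 h. Within 3 kb of a TSS the consensus was found at 2 of 22 member peaks (9.09%, all peaks assigned to genes 15.7%), and beyond 3 kb at 18 of 60 (30%, all 33.9%). AP-1 consensus letters were found at 12 of 82 member peaks at 72 h (14.6%, all 16.0%). By timing, 8 of 22 member regions called at 48 and 72 h had a TEAD consensus at the 72 h summit and 10 of 54 called at 72 h alone (36.4% and 18.5%), beside 40.2% and 22.4% of all such regions. Neither motif share stood apart from that of all peaks at 72 h beyond the counting interval.

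The other genes of the pathway were read from a list of 48. Of these, 4, 3, 5 and 27 had a promoter peak in the order of the times (8.33%, 6.25%, 10.4% and 56.2%). The shares of all genes were 9.4%, 2.55%, 9.09% and 58.4%, so that the promoter share of the list was close to that of all genes at 72 h. An assigned peak was found at 6, 7, 20 and 36 (12.5%, 14.6%, 41.7% and 75.0%), beside 10.3%, 7.78%, 25.0% and 63.8% of all genes. At 24 and 48 h the assigned shares of the members, 13.5% and 40.5%, were close to those of this list, so their height was not particular to the members. By role, all 6 co-receptors and other WNT receptors and 8 of 9 cytoplasmic transducers had a promoter peak at 72 h, as did 5 of 7 nuclear factors, 2 of 3 secretion and deacylation genes, 3 of 9 genes of the R-spondin module, 1 of 4 feedback targets and 2 of 10 other extracellular modulators. The difference between roles was not tested. The 5 genes with the highest fold enrichment at 72 h were BCL9L (65.9), a beta-catenin co-factor, LRP6 (55.7), the WNT co-receptor, RNF43 (34.9), an E3 ligase that removes Frizzleds from the surface, ROR1 (25.9), a receptor for WNT5A, and TCF7L1 (24.6), a TCF/LEF factor. FZD2 site 1, at 101.2 fold, stood above all 48.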

How the data were processed

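TAZ ChIP-seq peak lists of 4 conditions were used, grouped by sample titles, with 1 TAZ and 1 IgG library each. Per the study's methods and the submitters' processing notes, the authors aligned reads to hg38 using BWA and called peaks in MACS2, with the false discovery rate held to 0.01. Tool versions, and whether IgG was the control, were not given in the sources used here. The deposited lists give fold enrichment over local background as a ratio (with a pseudocount of 1), and for each peak −log10 of its p-value and its q-value from the authors' MACS2 run, with the summit offset. No differential or pooled values were used.

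Here, summit fragments and local background were solved from fold enrichment and Poisson p-value together, which returned 100% of the p-values to within 0.003 in −log10 units. On 3000 simulated peaks the solver, tested on simulated data, recovered the fragments of 100% of them. Total read numbers are not in the lists, so background coverage, the lowest local background among the peaks of a list, stood in for depth. Annotation was GENCODE version 44 for the main chromosomes, with 1-based hg38 coordinates. Lists were matched by an overlap of at least 1 bp. Python 3.11.15, pandas 2.3.3, SciPy 1.17.1 and pysam 0.24.0 were used. Members, gene lists and tests were chosen with earlier results of these data known. Every member could be named, and the 10 with the highest fold enrichment at 72 h and those with a peak without Dox were described site by site. Alternatives changed the TSS window, TSS set, assignment limit, gene types, thresholds, depth scaling, region overlap and motif window. The sequences of some sites are not reported here.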

Additional observations from a re-analysis of the deposited data

How the results depend on the processing

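Of 90 values under alternative settings, 74 stayed within 1.5 times the count, or within the interval of the share, and 16 did not. Some of the 74 could not have moved, since a count of 0 stays 0 under settings that only remove peaks or TSSs. The TEAD share without Dox had an interval of 9.43 to 99.2%, which few values could leave. With a TSS window of 5 kb in place of 3 kb, 1 member had a promoter peak without Dox, 2 at 24 h and 6 at 48 h, and with 1 kb none (0) had one at 48 h. The 48 h count was also 0 with TSSs of protein-coding transcripts only and with the 5′ end of the gene only, and it was 1 at a fold enrichment of at least 5 and 1 when lists were scaled to the lowest coverage with a common threshold. At 72 h a fold enrichment of at least 5 left 9 members with a promoter peak. With genes of any type as candidates for the nearest gene, 3 members had an assigned peak at 24 h, and the assigned peaks at 24, 48 and 72 h numbered 4, 19 and 43. The share of member peaks with a TEAD consensus became 100.0% without Dox and 35.4% at 72 h with the core CATTCC, and 47.6% at 72 h over whole peak intervals. The cause was not tested, beyond what the settings themselves change. No paired analysis was possible because each condition had 1 TAZ library and no test was made. Summits of about 20 to 36 fragments limit the values, and peaks under the threshold of a list are not seen.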
